A study of Mus musculus with 6 samples.

Results

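The lysosome is an acidic organelle in which hydrolases break down proteins, glycans and lipids, and its proton pump, the V-ATPase, keeps it acidic. The transcription factors TFEB, TFE3 and MITF are known to bind E-box sequences in promoters of lysosomal genes and raise their transcription when they enter the nucleus, a step that is controlled by phosphorylation. Hepatocytes and liver tumour cells use lysosomes for autophagy, for lipid turnover and for the handling of endocytosed material. The genes described here are the pump subunits, 32 named hydrolases, membrane proteins and regulators of this organelle, and the 3 factors of the TFEB family are among those 32.

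Members were chosen by symbol. All rows whose symbol starts with Atp6v or Atp6ap gave 19 pump genes, and 32 of 36 further named genes were listed, which makes 51 members among 11866 genes. Ctsf, Ctsh, Ctsz and Hexa were not among the listed rows and were not analysed here. The pump held 19 members, the proteases 7, the glycosidases with the glycan sulfatase Ids 10, the lipid hydrolases with prosaposin and progranulin 6, the membrane proteins 6 and the TFEB family 3. Of the 51, 49 had a mean of at least 1 FPKM (fragments per kilobase, scaled to library depth) and were tested, and Atp6v1g2 and Atp6v0a4 were too low.

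The samples were 6 poly(A) RNA-seq libraries of HCC3-4 cells, a line that comes from a liver tumour of MYC transgenic mice, so that every library carries the MYC transgene background. The 3 knockdown libraries (KD) came from cells stably transfected with a short hairpin RNA against Sf3b3 (shSf3b3), a subunit of the splicing complex SF3b, and the 3 control libraries (PLKO) from cells with pLKO.1-TRC, a negative control. The labels name 1 line and no second hairpin, and nothing in them says whether a group's libraries came from different cultures. The p-values therefore describe variation among the 6 libraries, which may be technical. The comparison of KD with PLKO asks how lysosomal transcript levels differed between cells with and without the hairpin.

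Each library had 15140441 to 17566101 reads over the rows of the table, of which the members took 0.647% to 0.842%, and single members had from 5 reads (Atp6v0a4 in PLKO 2) to 17545 (Psap in KD 2). Sf3b3 had 22.6, 28.7 and 29.2 FPKM in PLKO 1, 2 and 3 and 10.3, 9.56 and 13.9 FPKM in KD 1, 2 and 3, with no overlap (log2 fold change -1.26, SE 0.23, limma adjusted p = 0.037). Without PLKO 1, PLKO 2, KD 1 or KD 2 its limma adjusted p was 0.12 to 0.19. KD 3 and PLKO 3 were each more like the other than like their own group. Over the 10770 tested genes the log2 FPKM of KD 3 correlated with PLKO 3 at r = 0.956. This was above its values with KD 2 (0.944) and KD 1 (0.914). PLKO 3 correlated with PLKO 1 at 0.933 and with PLKO 2 at 0.911. Over the members the median absolute log2 difference from the PLKO mean was 0.52 in KD 1, 0.47 in KD 2 and 0.22 in KD 3, against 0.54, 0.44 and 0.36 over all tested genes. KD 3 was closer to the PLKO mean than the mean of KD 1 and KD 2 for 34 of 49 members (69.4%, beside 61.4% of all tested genes). Keratin Krt8, an epithelial marker, was at 53.4 to 79.7 FPKM in PLKO and 42.2 to 76.5 FPKM in KD (log2 fold change -0.15), and Krt18 was at 5.27 to 6.61 FPKM in PLKO and 8.41 to 9.60 FPKM in KD, without overlap (0.62, limma adjusted p = 0.10). The epithelial markers Cdh1 and Epcam were not listed. Of 7 hepatocyte markers only Apoe and Afp were listed, and Alb, Ttr, Apoa1, Serpina1a and Hnf4a were not. Apoe had 2.74 to 16.0 FPKM in PLKO and 10.2 to 13.8 FPKM in KD, with overlap (0.94, limma adjusted p = 0.28). Afp, too low to test, had 0.302 to 0.467 FPKM in PLKO and 0.814 to 1.98 FPKM in KD, without overlap.

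Promoter sequences of 4 members are shown because they differ in the E-box CACGTG, the core that TFEB family factors are known to bind. The stretches are the 250 bases before the RefSeq start of each gene on GRCm38.p6, 5′ to 3′ on the strand of the gene, with CACGTG in capitals. Lamp1 lies at chr8:13158911-13159160 on the plus strand and holds 4 copies, Ctsd at chr7:142387828-142388077 on the minus strand holds 2, Gaa at chr11:119267713-119267962 on the plus strand holds 1, and Cd68 at chr11:69666171-69666420 on the minus strand holds none.
Lamp1: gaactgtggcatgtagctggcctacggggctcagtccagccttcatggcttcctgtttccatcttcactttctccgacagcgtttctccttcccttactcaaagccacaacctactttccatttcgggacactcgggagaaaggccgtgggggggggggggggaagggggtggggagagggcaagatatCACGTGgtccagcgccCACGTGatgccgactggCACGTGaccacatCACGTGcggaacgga
Ctsd: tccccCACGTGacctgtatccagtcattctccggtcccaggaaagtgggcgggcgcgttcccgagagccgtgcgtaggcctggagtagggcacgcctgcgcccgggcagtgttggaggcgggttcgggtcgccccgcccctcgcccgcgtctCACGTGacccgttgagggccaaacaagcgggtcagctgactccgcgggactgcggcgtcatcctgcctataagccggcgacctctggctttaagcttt
Gaa: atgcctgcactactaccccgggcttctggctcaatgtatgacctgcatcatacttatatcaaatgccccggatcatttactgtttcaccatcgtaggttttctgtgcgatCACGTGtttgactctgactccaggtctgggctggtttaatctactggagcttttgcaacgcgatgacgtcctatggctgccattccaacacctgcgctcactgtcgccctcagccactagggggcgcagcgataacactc
Cd68: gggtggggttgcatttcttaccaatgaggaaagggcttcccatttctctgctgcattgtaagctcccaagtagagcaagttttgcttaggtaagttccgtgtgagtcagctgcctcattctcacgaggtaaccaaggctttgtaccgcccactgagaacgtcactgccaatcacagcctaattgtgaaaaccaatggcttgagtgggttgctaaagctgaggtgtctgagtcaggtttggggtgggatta

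The 4 copies before Lamp1 begin 61, 45, 28 and 15 bases before the start. RefSeq promoter windows of 300 bases (250 before and 50 after a start) were found for 44 of the 51 members, and 14 of these 44 genes (31.8%) held CACGTG, against 11.8% of 9045 listed genes with a window. CACGTG reads the same on both strands. The hexamer was in 4 of 6 protease genes with a window, 4 of 10 glycosidase genes, 4 of 14 pump genes, 2 of 6 membrane protein genes and in none of the 5 lipid hydrolase and 3 TFEB family genes. Members with the hexamer had fold changes of both signs: it was present in 6 of 21 genes with a log2 fold change above 0 and in 8 of 21 below 0. A match is a description of letters and not a bound site.

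No member was called over all genes tested. None of the 49 reached a limma adjusted p under 0.05 (Benjamini-Hochberg), where 2.92% of all 10770 genes did (1.12% higher and 1.79% lower in KD). The lowest adjusted p among them was 0.058, for Ctsl. At an unadjusted limma p under 0.05 there were 13 members (26.5%), 7 higher and 6 lower in KD, beside 27.6% of all genes (11.7% and 15.9%). No member was called either with log2(FPKM + 1) (3.43% of all genes), without a filter (2.62%), with a filter at 5 FPKM (3.66%), after quantile normalization (3.08%) or by voom on recovered reads with 2 scalings (2.86% and 2.04%). The groups of 3 libraries did not overlap for 16 members (32.7%), 7 with KD higher and 9 with KD lower, beside 32.1% of all genes (13.4% and 18.8%). Each of those has an exact two-sided permutation p of 0.1, the smallest that 3 against 3 libraries allow.

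**Figure D1:**
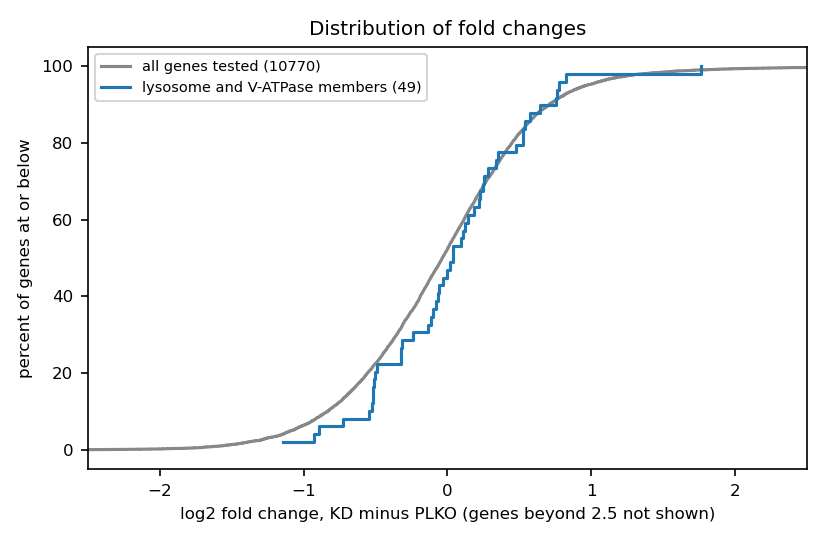
Cumulative share of genes (percent, vertical axis) against log2 fold change of KD over PLKO (horizontal axis) for the 49 tested members and for all 10770 tested genes. The medians are 0.04 and -0.04, and 2 members lie at or beyond a 2-fold change.

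Fold changes of the members lay on both sides of 0. Their median log2 fold change was 0.04, against -0.04 over all genes tested, with 26 above and 23 below 0 (47.7% of all genes were above). Their median absolute log2 fold change was 0.32, against 0.40. Only Cd68 and Ctsl differed by at least 2-fold, 4.08% of the members beside 11.1% of all genes. Members were the more abundant genes, with a median of 19.9 FPKM against 10.1 FPKM, and had a median SE of 0.26 against 0.27.

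With the replicate number as a block, 8 of 49 members were called (16.3%), beside 19.3% of all genes. Atp6ap2, Atp6v0c, Cd68 and Lamp1 were higher in KD, beside 8.19% of all genes, and Atp6v0d1, Ctsl, Asah1 and Grn were lower, beside 11.1%. Without KD 3, 8 members were called as well (beside 16.2% of all genes), with Atp6v0e and Ctsc in place of Atp6v0c and Grn. Of these 8, 5 were higher (6.81% of all genes) and 3 lower (9.39%). Without both libraries numbered 3 there were 11 (beside 27.9%), 6 higher (11.9% of all genes) and 5 lower (16%). Without PLKO 3 only Ctsl was called (beside 7.44%), and array weights, which weigh libraries by their spread, called 18 members (beside 33.4%). Without PLKO 1, PLKO 2, KD 1 or KD 2 limma called no gene at all. In these 4 fits 6 to 11 of the 49 members had an unadjusted limma p under 0.05, beside 1793 to 2315 of the 10770 genes.

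**Figure D2:**
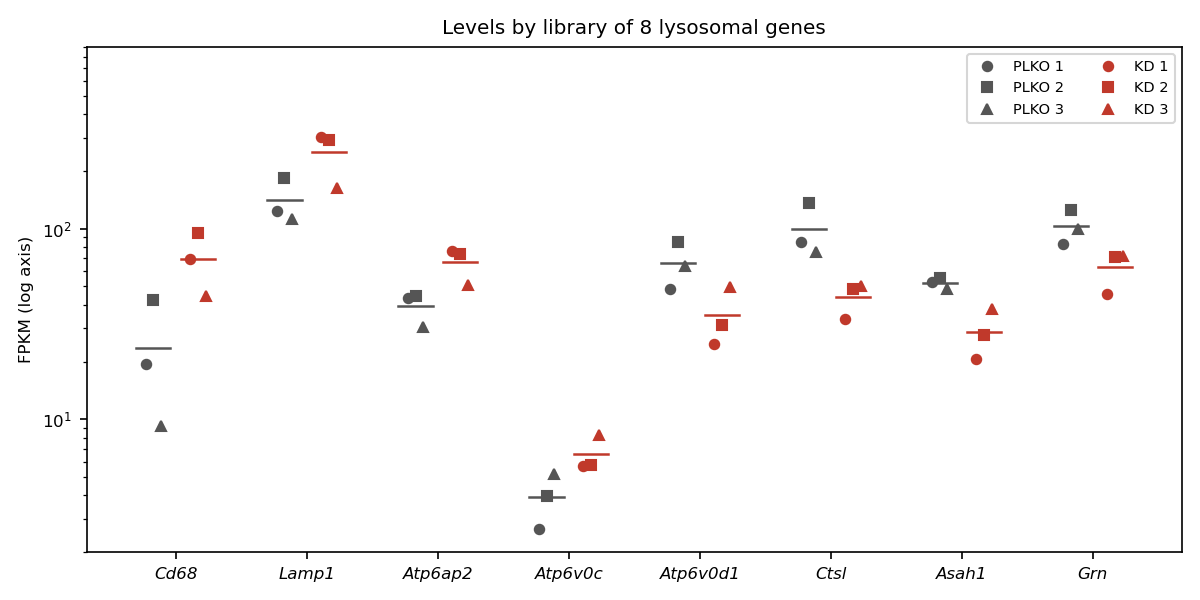
Level in each library (FPKM, log axis) of the 8 members called with the replicate block, with PLKO in grey, KD in red, marker shape for the library number and a bar for the mean of 3. The groups overlap for Lamp1 and Atp6v0d1, and KD 3 (red triangle) is the KD library nearest to PLKO for Cd68, Lamp1, Atp6ap2, Atp6v0d1, Ctsl, Asah1 and Grn.

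Levels of the TFEB family, the regulators, did not differ beyond the spread between libraries. Tfeb had 8.37, 5.42 and 3.63 FPKM in PLKO 1, 2 and 3 and 5.37, 6.08 and 4.43 FPKM in KD 1, 2 and 3, so that all KD values lay inside the PLKO range. Its log2 fold change was -0.06 (95% confidence interval -0.79 to 0.66, limma adjusted p = 0.92). Tfe3, the most abundant of the 3, had 10.8, 10.7 and 7.69 FPKM in PLKO and 11.3, 12.8 and 9.09 FPKM in KD, with overlap (0.19, interval -0.35 to 0.72, limma adjusted p = 0.63). Mitf, best known from pigment cells, had 2.72, 2.05 and 1.58 FPKM in PLKO and 1.74, 1.68 and 2.63 FPKM in KD (-0.06, interval -0.84 to 0.71, limma adjusted p = 0.92). The intervals of Tfeb and Mitf are wide, and the signs of both turned when single libraries were left out. Localisation and phosphorylation of these factors were not measured here.

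Subunits of the pump did not share a direction. The pump consists of a V1 sector in the cytosol that splits ATP and a V0 sector in the membrane that passes protons. Of 17 tested subunits 12 were above 0 and 5 below, where 47.7% of all genes were above. Their median log2 fold change was 0.25, against -0.04 over all genes tested, and limma adjusted p ran from 0.094 to 0.98. The V1 sector had 6 of 8 above 0 (median 0.18), the V0 sector 5 of 7 (0.25), and the accessory subunits Atp6ap1 and Atp6ap2 lay on opposite sides. By library the pump median stood at -0.08, 0.40 and -0.32 in PLKO 1, 2 and 3 and at 0.40, 0.43 and -0.11 in KD 1, 2 and 3, relative to the PLKO mean, so the groups overlapped.

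**Figure D3:**
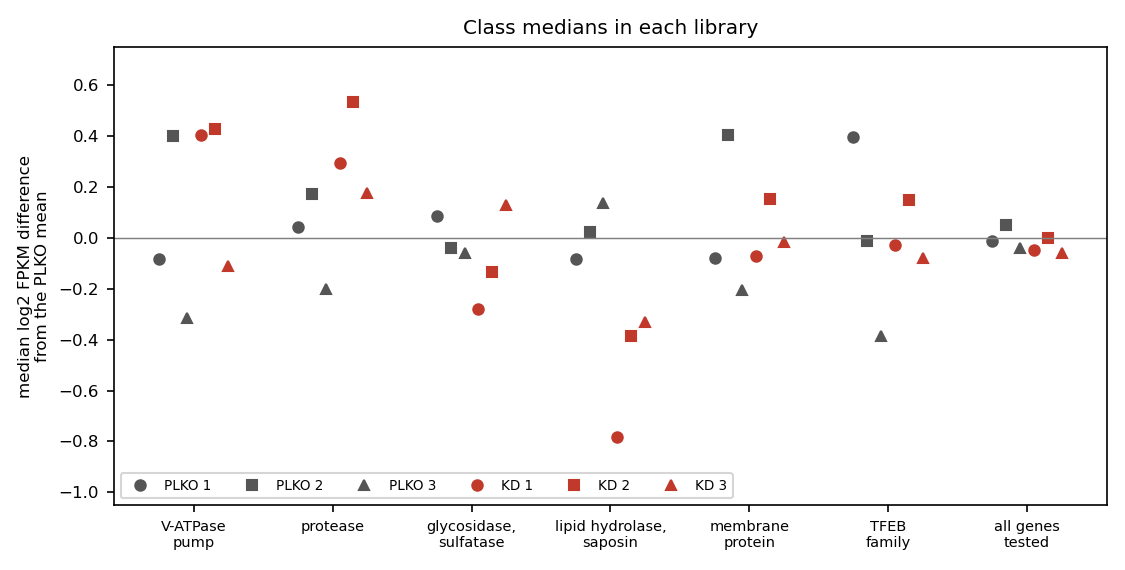
Median over the tested members of each class of the log2 FPKM difference from the PLKO mean (vertical axis), for each library, with PLKO in grey and KD in red and marker shape for the library number. The KD and PLKO libraries are apart for the lipid hydrolase class, where KD lies between -0.78 and -0.33, and for the protease class, where the lowest KD library (0.18) is next to the highest PLKO library (0.17).

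Atp6ap2, the accessory subunit also known as the prorenin receptor (chrX:12587801-12617049, GRCm38, plus strand), had 43.4, 44.5 and 30.6 FPKM in PLKO and 76.4, 74.0 and 50.7 FPKM in KD. All 3 KD libraries were above all PLKO libraries, KD 3 by the smallest margin. Its log2 fold change was 0.76 (SE 0.24, limma adjusted p = 0.094, and 0.027 with the replicate block).

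Atp6v0c, the proteolipid of the proton-carrying ring (chr17:24163866-24169702, minus strand), had 2.66, 3.94 and 5.15 FPKM in PLKO and 5.71, 5.74 and 8.30 FPKM in KD, again without overlap. KD minus PLKO was 0.78 in log2 units (SE 0.30, limma adjusted p = 0.14, and 0.039 with the block). It rests on 161 to 491 reads a library, and the annotation holds 2 pseudogenes of Atp6v0c that could share reads with it.

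Atp6v0d1, which joins the ring to the central stalk, went the other way. The gene lies at chr8:105524465-105566047 on the minus strand. It had 48.2, 85.2 and 64.1 FPKM in PLKO and 24.7, 31.3 and 49.5 FPKM in KD, so KD 3 lay above PLKO 1 and the groups overlapped. Its log2 fold change was -0.93 (SE 0.31, limma adjusted p = 0.099, and 0.022 with the block). Without KD 3 it was -1.20 (limma adjusted p = 0.031) and without PLKO 2 it was -0.72 (0.24).

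Other pump subunits with groups that did not overlap were Atp6v0e, Atp6v1a and Atp6ap1. Atp6v0e, a small membrane subunit, had 18.7 to 21.5 FPKM in PLKO and 23.5 to 35.1 FPKM in KD (0.58, limma adjusted p = 0.13). Atp6v1a, the subunit that splits ATP, had 19.7 to 26.6 FPKM in PLKO and 11.4 to 19.7 FPKM in KD (-0.55, limma adjusted p = 0.20), where KD 3 and PLKO 1 were almost level. Atp6ap1, the other accessory subunit, had 30.5 to 49.7 FPKM in PLKO and 22.7 to 28.6 FPKM in KD (-0.53, limma adjusted p = 0.18). Atp6v1b2, the partner of Atp6v1a in the catalytic ring, had the opposite sign to Atp6v1a, with 17.9 to 30.4 FPKM in PLKO and 29.2 to 37.6 FPKM in KD (0.53, limma adjusted p = 0.19).

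The 2 most abundant subunits both belong to V1. Atp6v1g1, part of a peripheral stalk, had 124.4, 215.2 and 114.9 FPKM in PLKO and 201.8, 230.4 and 137.4 FPKM in KD (0.35, limma adjusted p = 0.46). Atp6v1f, part of the central stalk, had 71.6, 111.9 and 64.5 FPKM in PLKO and 85.8, 100.2 and 61.9 FPKM in KD (0.01, limma adjusted p = 0.98). PLKO 2 was far above the other controls for both, and the groups overlapped. The remaining tested subunits were Atp6v0e2, Atp6v1h, Atp6v1d, Atp6v0b, Atp6v1e1, Atp6v0a2, Atp6v1c1 and Atp6v0a1, in descending order from 0.65 to -0.49, and each interval included 0.

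**Figure D4:**
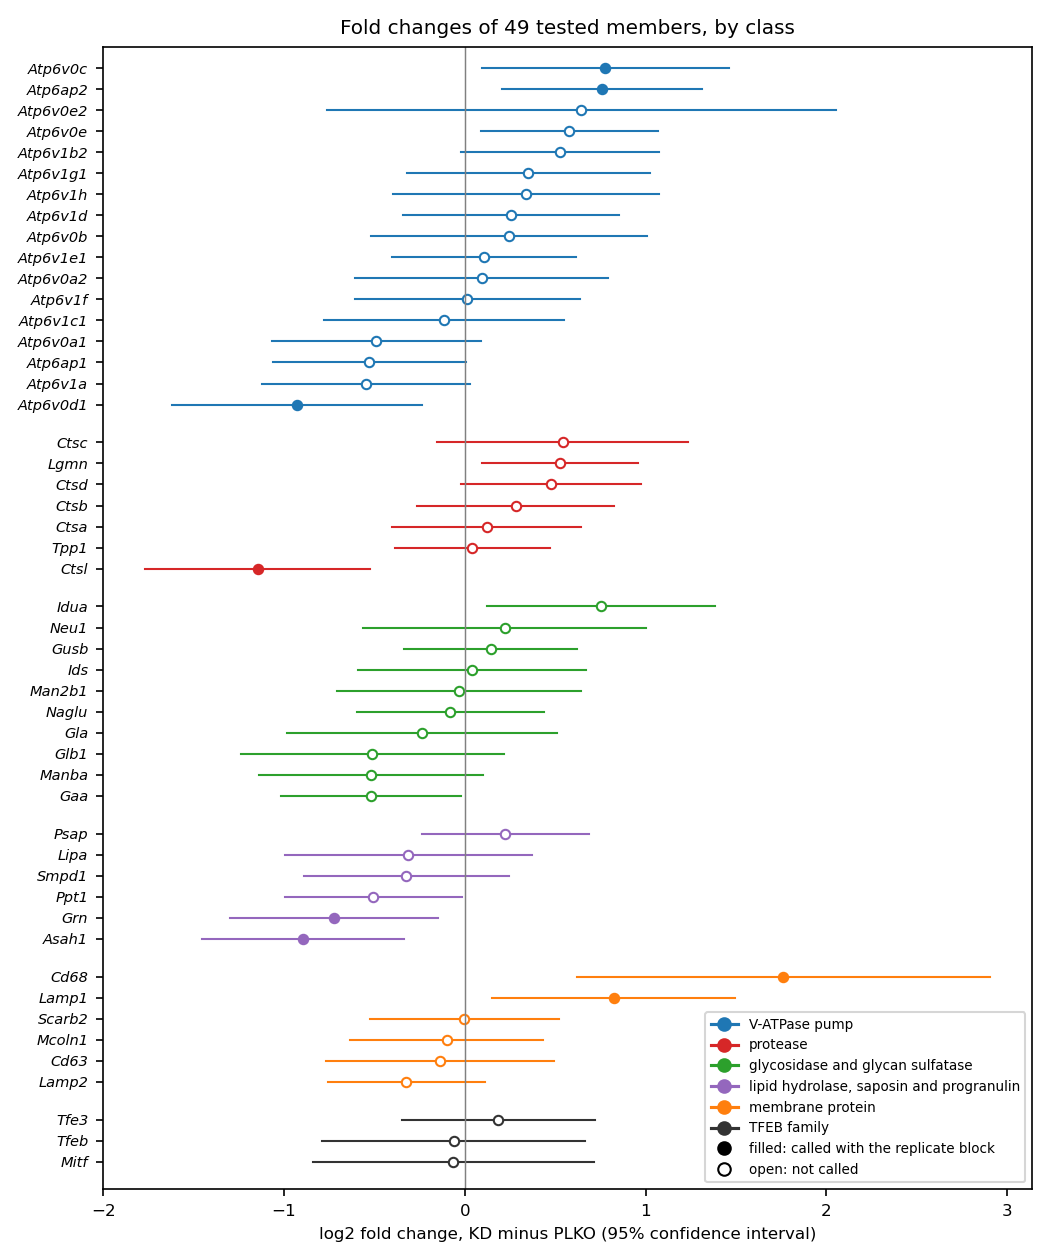
Log2 fold change of KD over PLKO (horizontal axis) with its 95% confidence interval from limma for each of the 49 tested members, grouped and coloured by class, with filled points for the 8 called with the replicate block. Each class with over 3 genes holds values on both sides of 0, from -1.15 for Ctsl to 1.76 for Cd68.

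Among the proteases cathepsin L stood opposite the rest. Ctsl, a cysteine endopeptidase, had 85.7, 136.7 and 75.2 FPKM in PLKO and 33.6, 48.4 and 49.997 FPKM in KD, and all KD libraries lay below all PLKO libraries. Its means were 99.2 ± 32.9 and 44.0 ± 9.04 FPKM (SD, n = 3), a log2 fold change of -1.15 (SE 0.28, limma adjusted p = 0.058, and 0.0085 with the block). It was covered by 3371 to 14830 reads. It was called without PLKO 3 (-1.32, limma adjusted p = 0.034) or KD 3 (-1.25, 0.036), and without PLKO 2 it was -0.89 (0.14). The annotated gene is chr13:64359337-64370890, minus strand.

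The other 6 proteases had log2 fold changes from 0.04 to 0.54. Lgmn, an asparaginyl endopeptidase that trims cathepsins, had 47.1, 44.8 and 40.1 FPKM in PLKO and 56.0, 69.6 and 64.7 FPKM in KD, without overlap (0.53, SE 0.19, limma adjusted p = 0.12). Ctsd, the main aspartic protease, had 91.4, 100.9 and 77.8 FPKM in PLKO and 125.9, 152.1 and 101.1 FPKM in KD. Its groups were apart by a narrow margin, KD 3 against PLKO 2 (0.48, SE 0.22, limma adjusted p = 0.19). Ctsb, the most abundant protease, had 88.5, 118.9 and 73.3 FPKM in PLKO and 112.3, 132.7 and 92.7 FPKM in KD, with overlap (0.28, limma adjusted p = 0.47). Ctsc, which activates serine proteases, was at 3.90 to 5.32 FPKM in PLKO and at 8.72, 8.15 and 4.35 FPKM in KD 1, 2 and 3, so that KD 3 was inside the PLKO range (0.54, limma adjusted p = 0.28). Tpp1, a tripeptidyl peptidase, and Ctsa, a carboxypeptidase that shields Neu1 and Glb1, were at 0.04 and 0.12.

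Enzymes of glycan breakdown showed no common direction. Of 10 tested, 4 were above and 6 below 0 (47.7% of all genes were above), with a median of -0.06 and limma adjusted p from 0.13 to 0.96. Idua, which removes iduronic acid from heparan and dermatan sulfate, had 2.33, 2.05 and 1.76 FPKM in PLKO and 4.03, 3.50 and 2.85 FPKM in KD, without overlap (0.75, SE 0.28, limma adjusted p = 0.13). It rests on 115 to 260 reads a library, and Dgkq, on the opposite strand with overlapping exons, had a log2 fold change of 0.76. Gaa, the lysosomal glycogen glucosidase, had 56.2, 61.3 and 49.6 FPKM in PLKO and 30.6, 40.6 and 46.7 FPKM in KD. All KD values were lower, KD 3 nearest to the controls (-0.52, SE 0.22, limma adjusted p = 0.17). Gla, an alpha-galactosidase, had 34.3, 52.3 and 21.9 FPKM in PLKO and 23.7, 26.5 and 38.0 FPKM in KD, all inside the PLKO range (-0.24, limma adjusted p = 0.66). Manba and Glb1, a mannosidase and a galactosidase, had log2 fold changes of -0.52 and -0.51, and Neu1, Gusb, Ids, Man2b1 and Naglu lay between -0.08 and 0.22.

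The class of lipid hydrolases, which was formed here and also holds prosaposin and progranulin, had the lowest median. Of 6 members 5 were below 0, with a median of -0.41, and Psap alone was above (beside 47.7% of all genes). By library the class median was -0.08, 0.02 and 0.14 in PLKO 1, 2 and 3 and -0.78, -0.39 and -0.33 in KD, relative to the PLKO mean, and this order is a description of 6 chosen genes. At an unadjusted limma p under 0.05 there were 3 members, Asah1, Grn and Ppt1, all lower, beside 15.9% of all genes, and with the block 2 were called lower, beside 11.1%.

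Asah1, acid ceramidase (chr8:41340197-41374773, minus strand), had 52.6, 55.1 and 48.2 FPKM in PLKO and 20.6, 27.6 and 37.9 FPKM in KD. The controls were close together and the KD libraries all lower and more spread (51.95 ± 3.50 against 28.7 ± 8.71 FPKM, SD, n = 3). Its log2 fold change was -0.90 (SE 0.25, limma adjusted p = 0.070, and 0.024 with the block). Without KD 3 it was -1.12 (limma adjusted p = 0.020).

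Grn encodes progranulin, a secreted and lysosomal protein that is cut into granulins. The gene is at chr11:102430315-102437048 on the plus strand. It had 83.3, 125.95 and 100.2 FPKM in PLKO and 45.4, 71.4 and 71.8 FPKM in KD, without overlap (-0.73, SE 0.25, limma adjusted p = 0.11, and 0.035 with the block). Fam171a2, whose exons overlap those of Grn on the opposite strand, had a mean of 24.1 FPKM in PLKO and 16.0 FPKM in KD. Ppt1, the palmitoyl thioesterase, had 15.9 to 19.0 FPKM in PLKO and 10.2 to 14.7 FPKM in KD (-0.51, limma adjusted p = 0.17), and overlaps the far more abundant Cap1 on the opposite strand. Psap, the precursor of the saposins that present lipids to hydrolases, was the most abundant member at 269.6, 283.0 and 325.1 FPKM in PLKO and 337.1, 403.7 and 290.8 FPKM in KD, with overlap (0.22, limma adjusted p = 0.50). Lipa, the acid lipase, and Smpd1, acid sphingomyelinase, had log2 fold changes of -0.31 and -0.32.

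Of the 6 membrane proteins, Cd68 and Lamp1 were above 0 and the other four were not. Cd68, a heavily glycosylated LAMP family protein abundant in macrophages, had 19.5, 42.1 and 9.19 FPKM in PLKO and 69.7, 95.02 and 44.4 FPKM in KD. KD 3 and PLKO 2 were almost level, and the other libraries were further apart. Its means of 23.6 ± 16.8 and 69.7 ± 25.3 FPKM (SD, n = 3) gave the largest log2 fold change of the 49 tested members, 1.76 (SE 0.50, interval 0.62 to 2.90, limma adjusted p = 0.075, and 0.0018 with the block). It rests on 181 to 1890 reads a library (chr11:69664213-69666153, minus strand). Without PLKO 3 it was 1.21 (limma adjusted p = 0.087) and without KD 3 it was 2.05 (0.045).

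Markers of leukocytes were checked because Cd68 is used as one. Of 10 such markers 2 were listed, Cd14 and Aif1, and Ptprc, Csf1r, Adgre1, Lyz2, Itgam, Tyrobp, Fcer1g and Cd52 were not. The summed level of the listed pair was 6.93 to 12.98 FPKM in PLKO and 10.2 to 24.9 FPKM in KD. Cd14 had 11.3, 10.996 and 5.74 FPKM in PLKO and 24.1, 17.8 and 8.88 FPKM in KD, with overlap (log2 fold change 0.81, limma adjusted p = 0.22, and 0.025 with the block, which called it). The block also called 8.19% of all genes higher in KD. Aif1 had the opposite sign, with 1.19 to 1.66 FPKM in PLKO and 0.839 to 1.31 FPKM in KD (-0.43, limma adjusted p = 0.48). The sum of the pair was mostly Cd14. The part of such cells in the Cd68 result was not tested, and in bulk RNA more cells of a type and more RNA per cell cannot be told apart.

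Lamp1, a main glycoprotein of the lysosomal membrane (chr8:13159161-13175338, plus strand), had 124.3, 185.7 and 112.8 FPKM in PLKO and 301.4, 292.0 and 163.8 FPKM in KD. KD 1 and KD 2 were above all controls and KD 3 was below PLKO 2. Its log2 fold change was 0.82 (SE 0.30, limma adjusted p = 0.12, and 0.028 with the block), and 1.11 without KD 3 (limma adjusted p = 0.034). The related Lamp2, which also serves chaperone-mediated autophagy, had 40.5, 40.5 and 41.7 FPKM in PLKO and 28.0, 34.3 and 36.3 FPKM in KD. All KD libraries were lower for Lamp2, by a small amount (-0.32, SE 0.19, limma adjusted p = 0.30). Cd63, a tetraspanin of lysosomes and exosomes, had 139.3, 249.9 and 140.4 FPKM in PLKO and 137.1, 195.9 and 137.6 FPKM in KD, with overlap (-0.13, limma adjusted p = 0.78). Scarb2, an integral lysosomal membrane protein, was at -0.0027, and Mcoln1, a calcium channel, at -0.10.

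The other genes of the lysosomal pathway held 4 called genes in 5 lists, whose sizes follow, beside the 2.92% called over all genes. Among 23 other enzymes and cofactors 1 was lower (beside 1.79% of all genes). In this list 13 lay above 0 (beside 47.7% of all genes) and the median was 0.12. Acp2, lysosomal acid phosphatase, fell from 7.58, 7.81 and 8.17 FPKM in PLKO to 3.07, 3.18 and 3.57 FPKM in KD (-1.27, SE 0.21, limma adjusted p = 0.033), with a wide gap between the groups. Galns, a sulfatase of keratan sulfate, was at -1.13 in log2 fold change, with a limma adjusted p of 0.059. The block fit called 3 of the 23 lower, beside 11.1% of all genes.

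Of 20 other membrane proteins and transporters 2 were higher (beside 1.12% of all genes). Their median was 0.31, with 14 above 0 (beside 47.7% of all genes). Gpnmb, a transmembrane glycoprotein found on lysosomes and melanosomes, rose from 1.76, 2.43 and 1.25 FPKM in PLKO to 6.31, 8.67 and 7.39 FPKM in KD (2.08, SE 0.30, limma adjusted p = 0.029). Litaf, a late endosomal membrane protein, rose from 42.7, 32.2 and 30.3 FPKM to 69.5, 75.5 and 59.2 FPKM (0.97, SE 0.21, limma adjusted p = 0.0498). Slc15a4, a histidine and peptide transporter, was at 1.01 (limma adjusted p = 0.055). The block fit called 4 of the 20 higher, beside 8.19% of all genes.

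Genes that deliver enzymes by the mannose 6-phosphate route and sorting receptors held no call among 13 (limma, 3 at an unadjusted p under 0.05 beside 27.6% of all genes, 1 with the block beside 19.3%), with a median of -0.12. Gnptab, which makes the tag, was at 0.54, the receptor Sort1 at -1.11 and the adaptor Ap1b1 at -0.52 (limma adjusted p from 0.14 to 0.18). Assembly factors of the pump held no call among 9 (limma, 2 at an unadjusted p under 0.05 and 2 with the block, beside the same 27.6% and 19.3%), and Ncoa7, which binds the V1 sector, was at 1.34, Rogdi at -0.74 and Tmem199 at 0.52.

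Among 17 genes that control TFEB and TFE3, 1 was lower (beside 1.79% of all genes). Ppp3ca, a catalytic subunit of calcineurin, the phosphatase that is known to dephosphorylate TFEB, fell from 66.5, 75.4 and 89.3 FPKM in PLKO to 27.1, 31.8 and 44.7 FPKM in KD (-1.18, SE 0.24, limma adjusted p = 0.044). All KD libraries were below all PLKO libraries. Ppp3cb, the other catalytic subunit tested, was at -0.72 (limma adjusted p = 0.075) and Rragd, a GTPase that recruits these factors to the lysosome, at 0.82 (0.092). The block fit called 1 of the 17 higher and 3 lower, beside 8.19% and 11.1% of all genes, and the list's median log2 fold change was -0.0047. The calls of Acp2, Gpnmb, Litaf and Ppp3ca were each lost without PLKO 1, PLKO 2, KD 1 or KD 2, with limma adjusted p from 0.087 to 0.22.

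Exons of 15 of the 51 members overlap those of another annotated gene, and whether counting used strand is not given in the sources used here. Ctsa overlaps Pltp, Ctsb overlaps Fdft1, and Lamp1 overlaps Grtp1, each on the opposite strand. Grtp1, at 0.905 FPKM in PLKO and 0.827 FPKM in KD, is far below Lamp1, whereas Fdft1 had 49.2 and 62.6 FPKM beside Ctsb. The 2 members too low to test, Atp6v1g2 and Atp6v0a4, are forms known from neurons and from kidney and ear, and overlap more abundant genes. They had 0.450 to 1.52 FPKM and 0.0844 to 0.609 FPKM over the 6 libraries.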

How the data were processed

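Poly(A) RNA of 6 libraries was measured, 3 KD and 3 PLKO, with groups and numbers from the sample titles. The authors deposited 1 table of log2 FPKM for 11866 genes (values from -7.85 to 13.17). Per the submitters' processing notes reads were processed against GRCm38, with FastQC 0.11.7 among the tools. No source used here names the aligner, counter, strand use or gene filter. The deposited log2 values were raised to FPKM (base 2) for printing.

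The deposited log2 values were tested with limma 3.58.1 (R 4.3.3) with a mean-variance trend on the 10770 genes with a mean of at least 1 FPKM, leaving out 1096. Group was the only term, with 4 residual degrees of freedom. Log2 fold changes are KD minus PLKO, and Benjamini-Hochberg adjusted p under 0.05 over all tested genes was called. The fit was tested on simulated data with noise independent between libraries, unlike the deviations that PLKO 3 and KD 3 shared here (r = 0.50). The values hold a prior (mean 2.0 reads) that understates changes of genes with few reads. Whole reads were recovered from their steps for 100% of genes within 0.01 reads, using exonic lengths of GENCODE M21 for 10975 genes and a length scan for 891. They are given as depth and entered added alternatives only.

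The main fit used no pairing, and equal library numbers were taken to pair libraries in the replicate block alone. Deviations from the group means correlated at 0.18, 0.29 and 0.50 for numbers 1, 2 and 3, above a limit of 0.1. No label states this pairing, and it is not clean. Unlike numbers reached 0.28 (PLKO 1 and KD 2) and 0.30 (PLKO 2 and KD 1), both above the 0.18 of number 1. Alternatives were log2(FPKM + 1), no filter, a mean of at least 5 FPKM, the replicate block, quantile normalization, array weights, leaving out libraries, and voom on recovered reads (2 scalings), the last chosen after seeing the data.

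The members and lists were chosen with earlier results of these data known, so a list is described by counts and medians beside all genes. Values by library are given for the TFEB family, for members called with or without the block, and for the 2 members of each class with the lowest p and the 2 with the highest mean, and some other members are named by range. At most 3 genes of each pathway list are named, those with the lowest p, and 1 result is not reported here. Of 7 hepatocyte, 4 epithelial, 10 leukocyte, 7 fibroblast, 4 endothelial and 4 melanocyte markers 2, 2, 2, 4, 0 and 0 were listed, and none was called without the block. Afp was too low to test, and the block fit called Cd14 (log2 fold change 0.81, limma adjusted p = 0.025) and Pdgfrb (-0.96, 0.012). That fit called 8.19% of all genes higher and 11.1% lower in KD. The fibroblast markers listed (Col1a1, Col1a2, Pdgfra and Pdgfrb) summed to 62.5 to 93.3 FPKM in PLKO and 38.5 to 51.6 FPKM in KD. Most of this sum was Pdgfrb (54.3 to 79.3 FPKM in PLKO and 24.6 to 41.2 FPKM in KD). Pdgfra had the opposite sign (log2 fold change 0.31, limma adjusted p = 0.55). Coordinates are 1-based on GRCm38 (GENCODE M21), and promoters are from RefSeq on GRCm38.p6. RefSeq starts can differ from the 5′ ends in GENCODE. Python 3.11.15 was used for counts and figures.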

Additional observations from a re-analysis of the deposited data

How the results depend on the processing

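Calls depended on the libraries used. Of all genes 314 were called, against 2080 with the replicate block, 3599 with array weights, 3009 without both libraries numbered 3, and 0 to 1744 when single libraries were left out. Of the 49 tested members 0 were called, against 8 with the replicate block, 18 with array weights and 11 without both libraries numbered 3. The shares of all genes called in these settings were 19.3%, 33.4% and 27.9%. When single libraries were left out, 0 to 8 members were called, beside 0% to 16.2% of all genes. Without PLKO 1, PLKO 2, KD 1 or KD 2, where limma called no gene, 1793 to 2315 of 10770 genes and 6 to 11 of 49 members had an unadjusted p under 0.05. The gene-by-gene array weights were used because the default estimate did not converge. The other alternatives (log2(FPKM + 1), no filter, the filter at 5 FPKM, quantile normalization and voom with both scalings) called 0 members. The replicate block changed no other call of a member than the 8. With array weights the protease median was 0.49 (0.28 with equal weights) and the membrane protein median 0.19 (-0.05), and leaving out single libraries the latter ran from -0.11 to 0.16. Signs turned for genes near 0: leaving out single libraries, Atp6v1f ran from -0.14 to 0.25, Cd63 from -0.31 to 0.14 (and 0.20 with array weights), Gla from -0.56 to 0.073, Mitf from -0.27 to 0.14 and Tfeb from -0.36 to 0.24. The cause was not tested. The 2 untested pump genes fell below the filter at a mean of 1 FPKM. Atp6v0e2, with 22 to 145 reads a library, has the widest error (SE 0.62) of the tested members. It had 1.44, 3.69 and 0.634 FPKM in PLKO 1, 2 and 3.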
